A study of Mus musculus with 3 samples.

Results

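The cells described here are the barcodes of a CD45-sorted fraction of mouse mammary tumours that carry transcripts of Epcam, Krt8 and Krt18, which encode an epithelial adhesion molecule and the paired simple-epithelial keratins. They were selected on their own counts: at least 1 Epcam UMI (unique molecular identifier, 1 captured transcript), at least 5 UMIs over the 3 genes, 0 UMIs of the T-cell genes Cd3d, Cd3e and Cd3g, at most 5 of the macrophage genes C1qa, C1qb and C1qc, and under 1% of UMIs from the neutrophil genes S100a8 and S100a9. The files hold 14336 barcodes, of which 14226 had 200 genes or more and no more than 10% of UMIs from mitochondrial genes, and 196 of these met the rule (71, 63 and 62 in replicates 1, 2 and 3). That is 1.62%, 1.05% and 1.62% of the kept barcodes, a mean of 1.43% ± 0.329 (SD, n = 3), with exact 95% binomial intervals of 1.27% to 2.04%, 0.807% to 1.34% and 1.24% to 2.07%. Since the barcodes were chosen by epithelial transcripts and by the lack of leukocyte ones, every difference from leukocytes is given as a description: no p is printed for it, and the counts of genes called in that contrast support nothing.

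The series holds 3 droplet libraries of 1 group, with no control group. Each comes from a mammary tumour that grew for 4 weeks from injected 2208L cells, a mouse mammary tumour line, and was taken at a diameter of 0.7 to 1 cm; viable cells stained for CD45 and negative for DAPI were sorted. The labels give no strain, sex or age and do not say whether the libraries are separate animals, so the spread between them may be technical. CD45, the stain of the sort, is the leukocyte surface phosphatase encoded by Ptprc; the cell type is labelled tumour.

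Mammary epithelium has an inner luminal layer, marked by Krt8, Krt18 and tight-junction claudins, and an outer contractile basal layer, marked by Krt5, Krt14 and smooth-muscle actin. Tumour epithelium can release growth factors and chemokines that act on neutrophils: the colony-stimulating factor Csf3 acts through Csf3r, and the chemokines Cxcl1, Cxcl2, Cxcl3 and Cxcl5 act through Cxcr2. Levels below are UMIs summed over the barcodes of a class in 1 library, scaled to 1000000 UMIs of that class (CPM), in the order of replicates 1, 2 and 3. The comparison class is the 13516 kept leukocytes (no Epcam UMI, at most 2 keratin UMIs and at least 1 UMI of a leukocyte gene). Within it lie a neutrophil gate of 4043 barcodes, a macrophage gate of 1712 and a T-cell gate of 3000, set by the same S100a8/S100a9, C1q and Cd3 counts, the T-cell gate needing at least 2 Cd3 UMIs; 514 kept barcodes fell in neither main class. The median depth was 10043 UMIs in the selected barcodes against 1330 in the leukocytes, 982 in the neutrophil gate, 4650 in the macrophage gate and 1506 in the T-cell gate. No barcode sequence was shared between libraries among the selected barcodes; over all barcodes, 29, 25 and 37 were shared between pairs of libraries.

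The 196 barcodes were of 2 kinds, and the smaller went against the label. At least 1 Krt8 or Krt18 UMI was present in 158 (57, 48 and 53 in replicates 1, 2 and 3), here called keratin-detected. The other 38 (14, 15 and 9), which passed on 5 to 14 Epcam UMIs alone, are called keratin-free; they made up 19.4% of the selected barcodes, with an exact 95% interval of 14.1% to 25.6%. This division was made after the values were seen. Wfdc18, a small whey acidic protein-like secreted protein of mammary tissue, had a UMI in 158 of 158 keratin-detected barcodes and in 1 of 38 keratin-free ones, and Cldn3 or Cldn7 in 147 and 0. Ptprc went the other way, with a UMI in 17 of 158 and in 32 of 38.

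The MHC class II genes Cd74, H2-Aa, H2-Ab1 and H2-Eb1, which present antigen to helper T cells, took 2.28% to 12.1% of the UMIs of every keratin-free barcode. Among the keratin-detected barcodes the median was 0.00950%, 153 of 158 lay under 0.1%, and 2 reached 1% or more. Summed Cd74 was at 36468, 30221 and 34531 CPM in the keratin-free barcodes, against 122, 219.9 and 52.97 CPM in the keratin-detected ones and 7027, 9506 and 6637 CPM in leukocytes. The keratin-free levels were above both other classes in every library. Other leading genes of the keratin-free barcodes included Cst3, a protease inhibitor at 20319.9, 23223 and 19869 CPM, the peptide-loading gene H2-DMb2 at 1894, 1646 and 1861 CPM and the chemokine Ccl17 at 563, 213 and 780.4 CPM. These leading genes were likewise chosen after the values were seen.

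The keratin-free barcodes also held Flt3, a growth factor receptor of dendritic-cell precursors, at a mean of 59.5 CPM against 6.87 CPM in leukocytes and none in the keratin-detected barcodes. The 7 dendritic-cell markers summed to 125 CPM in them, 118 CPM in leukocytes and 1.49 CPM in the keratin-detected barcodes. Xcr1, Clec9a and Ccr7 of that list were at 0 in the keratin-free barcodes. There 3 counts come to 38.4, 33.6 and 45.0 CPM by library, so these 0 values and the Flt3 level rest on few counts. The list was mixed in them, and no cell type name is given to the keratin-free barcodes. The 12 pan-leukocyte genes, some of which the leukocyte class was chosen by, took a median of 0.842% of their UMIs, and 37 of 38 reached the 5th percentile of leukocytes (0.430%), as did 4 of the 158 keratin-detected barcodes. Epcam was at 1102 CPM in them against 712 CPM in the keratin-detected barcodes. A keratin-free barcode could pass only with at least 5 Epcam UMIs and a keratin-detected one needed 1. The selection thus favoured this order, and nothing is read from it. Cdh1, the E-cadherin gene, was at 179, 235 and 180.1 CPM in the keratin-free and 46.4, 57.9 and 61.1 CPM in the keratin-detected barcodes. The label therefore held by its markers for 158 of the 196, and the levels below are of those 158 unless all 196 are named.

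**Figure D1:**
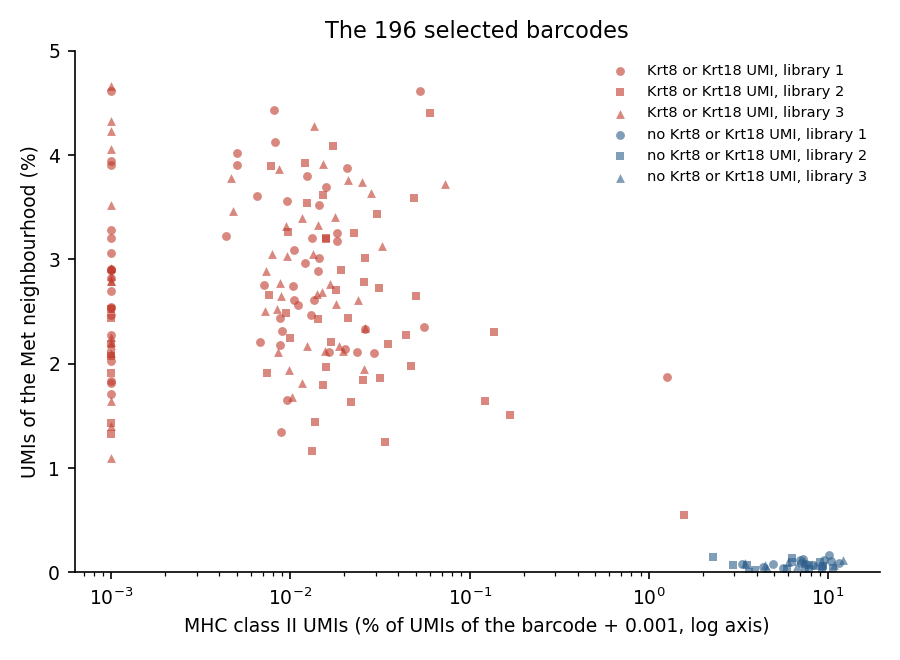
Each point is 1 of the 196 selected barcodes, coloured by whether a Krt8 or Krt18 UMI was found and shaped by library; the x axis is the percent of its UMIs from 4 MHC class II genes plus 0.001 (log axis) and the y axis the percent from the genes around Met described further on. The 38 keratin-free barcodes lie between 2.28% and 12.1% on the x axis and at or below 0.170% on the y axis, and 157 of the 158 keratin-detected ones lie at 1% or more on the y axis.

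Near the threshold the 2 kinds mixed. Of the 23 selected barcodes with exactly 5 UMIs of the 3 genes, 7 had a keratin UMI and the median depth was 5232 UMIs; of the 34 barcodes that had 4 and passed the other limits, 5 had a keratin UMI and the median was 5387 UMIs. The leukocyte limits removed 35 barcodes that met the epithelial ones, 24 by a Cd3 UMI (18 of them by a single one), 11 by C1q and 5 by S100a8 and S100a9.

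As a share of UMIs, leukocyte RNA in the keratin-detected barcodes was below that of leukocytes. The 7 pan-leukocyte genes that no class rule used summed to 246, 327 and 198 CPM against 5311, 5570.3 and 6582 CPM in leukocytes; all 12 summed to 412, 636 and 323 CPM against 11678, 12756 and 13554 CPM. Ptprc was at 11.6, 19.8 and 4.07 CPM against 290.1, 357 and 321 CPM, and after thinning to 1000 UMIs it was seen in 1.92% of the keratin-detected barcodes, 28.6% of leukocytes and 36.8% of the keratin-free ones. Of the barcodes as deposited, a Ptprc UMI was found in 10.5%, 18.8% and 3.77% of the keratin-detected ones, with exact 95% intervals of 3.96% to 21.5%, 8.95% to 32.6% and 0.460% to 13.0%. Over all 196 the shares were 23.9%, 36.5% and 14.5%, a mean of 24.99% ± 11.03 (SD, n = 3).

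In droplets, free RNA of one cell type can be captured with another, and T cells should lack neutrophil and macrophage genes. The 11 neutrophil genes outside the selection summed to 370, 461 and 323 CPM in the keratin-detected barcodes and 382, 544 and 426 CPM in the T-cell gate, and the 10 macrophage genes outside it to 216, 209.9 and 143 CPM against 773, 905 and 686 CPM. Per UMI the keratin-detected barcodes were thus below the T-cell gate in each library, but per barcode, at a median of 11667 UMIs against 1506, the order was the other way. S100a8, which the selection capped, had a UMI in 62.0% of the keratin-detected barcodes and 20.1% of the T-cell gate as deposited, and in 14.1% and 12.9% after thinning to 1000 UMIs. How much of this RNA was free RNA was not tested. Msrb1, a methionine sulfoxide reductase, was at 222, 291 and 143 CPM against 184 CPM in the T-cell gate, and Retnlg rested on 8 UMIs. Fibroblast genes summed to 2.90, 4.96 and 0 CPM and endothelial genes to 10.1, 11.6 and 13.6 CPM.

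The 1 comparison inside the selected barcodes that the rule did not use was by Ptprc. Each was thinned to 6500 UMIs, shallower ones were left out, and 19 with a Ptprc UMI were compared with 131 without, as sums per library. Of 1929 genes tested, 128 (6.64%) were higher and 25 (1.3%) lower with Ptprc (edgeR's quasi-likelihood test, library as a block, adjusted p under 0.05 by Benjamini-Hochberg). The 6 tested pan-leukocyte genes and the 5 tested MHC class II genes were all called higher, and none of 7 luminal genes was called, 4 of which had an unadjusted p under 0.05. Genes of the keratin-detected barcodes outside that list were among the 25 called lower. They included Slpi (-2.52 ± 0.54, log2, SE), Cdkn2a (-2.48 ± 0.52), Cftr (-2.37 ± 0.61) and Met (-2.11 ± 0.56), picked here because other paragraphs describe them. Cst3 was higher by 4.12 ± 0.34 (log2, SE; edgeR adjusted p = 0.000684) and H2-DMa by 4.32 ± 0.44 (edgeR adjusted p = 0.00138). The Ptprc side held 10 keratin-free and 9 keratin-detected barcodes and the other side 4 and 127, so the comparison largely repeats that division. Without replicate 2 edgeR called no gene (369 of 2132 had an unadjusted p under 0.05; DESeq2 was run with all 3 libraries and called 182), without replicate 1 it was 36, and among the keratin-detected barcodes alone, where replicate 3 had none with Ptprc, it was 23.

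The keratin-detected barcodes had luminal transcripts, with parts of the basal set. Krt8 was at 507, 628 and 857 CPM and Krt18 at 1165, 1539 and 1563 CPM, both used by the selection. Krt7, another simple keratin, was at 354, 539 and 736 CPM, and Cldn3 at 487, 439.7 and 465, Cldn7 at 359, 412 and 367 and Cldn4 at 103, 64.5 and 69.3 CPM; in leukocytes these 4 lay at or under 2.64 CPM in every library. The libraries did not overlap with leukocytes for any of them, and replicate 3 was highest for Krt8, Krt18 and Krt7. Epithelial transcription factors were present, with Elf3 at 43.5, 41.3 and 46.2 CPM, Ehf at 31.9, 46.3 and 46.2 CPM and Elf5, a regulator of milk-secreting alveolar cells, at 31.9, 61.2 and 48.9 CPM. Krt19 and the hormone receptor genes Esr1 and Pgr had no UMI.

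Of the basal and myoepithelial list, the contractile genes Acta2, Myh11 and Cnn1 were at 0, as was Krt5. Krt14 was seen in 8 barcodes, Krt15 in 23 and Trp63, a basal-layer transcription factor, in 2. Other genes of the list were present in most of these barcodes or at high levels against leukocytes. Sox10, a transcription factor of neural crest and of mammary progenitors, was at 145, 136 and 159 CPM in 116 barcodes, Lgals7, an epithelial galectin, at 454, 362 and 595 CPM, and Igfbp5, a secreted binder of insulin-like growth factors, at 746, 1012 and 1009 CPM. The integrin gene Itgb4 was at 47.8, 52.9 and 89.6 CPM. Leukocyte levels of these 4 lay at or under 9.23 CPM in every library. The keratin-detected barcodes held luminal keratins and claudins beside Sox10 and Itgb4, without Acta2, Myh11 and Cnn1.

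Genes of mesenchymal transition were divided. Twist1, a transcription factor of that programme, was at 63.8, 46.3 and 50.3 CPM in 59 barcodes and Snai1 at 14.5, 23.1 and 20.4 CPM, while Vim, the intermediate filament vimentin, was at 130.4, 142 and 118 CPM against 539, 474 and 474 CPM in leukocytes and 135, 119.5 and 100.2 CPM in the neutrophil gate, and Snai2 was at 0. Milk and secretory genes included Wfdc18 at 21070.2, 20417 and 21544 CPM, Trf (transferrin) at 3743, 3962 and 4204 CPM and Mfge8, a milk fat globule protein, at 972, 1165 and 968 CPM. The kappa-casein gene Csn3 was at 383, 164 and 183 CPM, highest in replicate 1, while Csn2 and Wap had no UMI. Further leading genes, singled out after their values were seen, were Fxyd3, a sodium-pump regulator, at 2091, 2351 and 2132 CPM, Tm4sf1 at 1881, 2209 and 2099.8 CPM and the imprinted RNA H19 at 1848, 2010.2 and 1706 CPM in 110 barcodes.

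Over all genes, 3017 of 11262 (26.8%) were called higher and 3556 (31.6%) lower in the 196 barcodes than in leukocytes, 3671 (36.8%) and 3237 (32.5%) of 9970 against the neutrophil gate, and 2714 (27.2%) and 2867 (28.8%) against the macrophage gate (edgeR, library as a block). The selection used this contrast, so these shares and the list counts that follow are descriptions and nothing is read from them. Each list count below is to be set beside these shares of all genes. With library totals in place of trimmed-mean scaling, the neutrophil contrast had 4561 higher and 2448 lower, and the median of all its genes moved from 0.09 to 0.53 (log2). The 10 named genes with the largest fold over leukocytes were Ctgf, Fam150b, Cldn3, Fermt1, Igfbp5, Irx2, Wfdc2, Ano1, Cldn4 and Clca3a2, at 37.5 to 1016 CPM in the 196 barcodes. At the other end stood the macrophage genes Folr2, Adgre1, Ms4a7, F13a1 and Clec4a1, the cytotoxic protease gene Gzmb, the chemokines Ccl2, Ccl12 and Cxcl10 and the receptor Cxcr6, all at or under 4.32 CPM. Against the neutrophil gate the set added Auts2, Col9a1, Duoxa1, Dclk1, Nfib and Slco2a1, and against the macrophage gate Cyr61, Csn3, Cftr, Serinc2, Tinagl1, Sox10 and Irx1.

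Among acute-phase proteins and alarmins, Lcn2, Slpi and Wfdc2 lay above every leukocyte gate. Lcn2, the siderophore-binding lipocalin first known from neutrophil granules, was at 6995, 7918 and 6299 CPM in the keratin-detected barcodes. In the neutrophil gate it was at 503, 505 and 483 CPM, in the macrophage gate at 36.3, 22.3 and 32.9 CPM and in the T-cell gate at 13.2, 11.6 and 22.7 CPM. Every keratin-detected value lay above every value of the 3 gates, and 155 of 158 barcodes had a UMI, against 2 of 38 keratin-free ones. Over all 196 barcodes Lcn2 was 3.23 ± 0.13 (log2, SE) above the neutrophil gate and 5.61 ± 0.16 above leukocytes. Slpi, an inhibitor of neutrophil elastase, was at 3272, 2652 and 2541 CPM against 239.9, 365 and 262 CPM in the neutrophil gate, a log2 difference of 2.80 ± 0.35 for all 196. Wfdc2, of the same protein fold, was at 789.8, 906 and 1108 CPM and under 4 CPM in leukocytes.

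Spp1 (osteopontin) was at 6643, 4959 and 10539.8 CPM, highest in replicate 3, against 2717, 1846 and 3203 CPM in the macrophage gate, 1.21 ± 0.23 higher on the log2 scale over all 196. Anxa1, whose product acts on formyl peptide receptors of neutrophils, was at 578, 465 and 807 CPM against 126, 137 and 173 CPM in the neutrophil gate. Mif, an inhibitor of macrophage migration, was at 2201, 2347 and 2049.6 CPM, above leukocytes at 1480.5, 1273 and 1814 CPM but below the neutrophil gate at 3284, 3049 and 3064 CPM (-1.03 ± 0.08, log2, all 196). The size of that log2 difference depends on the trimmed-mean scaling, which moved the median of all genes in the neutrophil contrast. Hmgb1, a nuclear protein that acts as an alarmin when released, was at 897, 731 and 770.1 CPM. Serum amyloid and haptoglobin lay on the leukocyte side: Saa3 at 2.90, 3.31 and 6.79 CPM against 335, 752 and 527 CPM in the neutrophil gate and Hp at 44.9, 19.8 and 40.7 against 504, 807 and 716 CPM. Saa1, Saa2 and Orm1 were at 0. Lgals3 was at 101, 121 and 111 CPM, C3 at 4.35, 8.27 and 12.2 CPM, Cfb at 0, 3.31 and 0 CPM and Vegfa at 37.7, 11.6 and 33.96 CPM. Of 13 tested genes of the list, 7 were called higher than leukocytes and 5 lower, where 26.8% and 31.6% of all genes were.

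**Figure D2:**
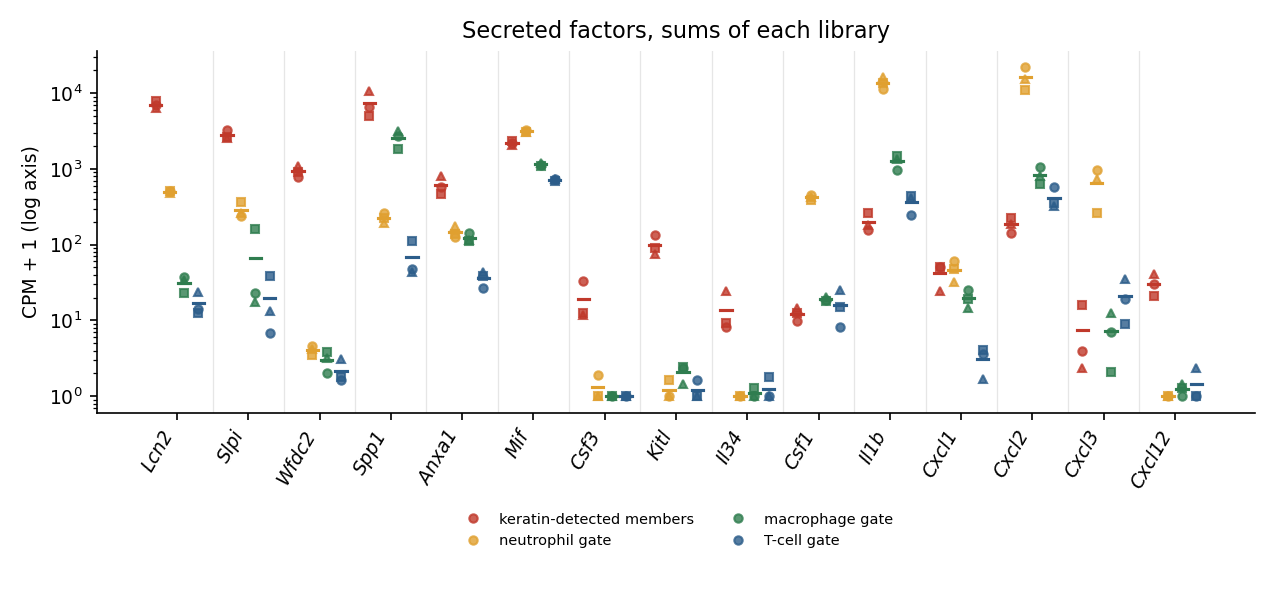
CPM plus 1 (log axis) of 15 secreted factors in the summed barcodes of each library (circle, square and triangle for replicates 1, 2 and 3; bar, mean) for the keratin-detected barcodes and the 3 leukocyte gates. Lcn2, Slpi and Wfdc2 lie above every gate, and Il1b, Cxcl2 and Csf1 lie below the neutrophil gate, in each library.

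Colony-stimulating factors and cytokines divided by gene. Csf3, the main growth factor of neutrophils, was at 31.9, 11.6 and 10.9 CPM, from 37 UMIs in 15 of 158 barcodes (9.49%, exact 95% interval 5.41% to 15.2%), and in 3 of 13516 leukocytes. The macrophage and T-cell gates had no Csf3 UMI, which allows up to 0.341 and 0.539 CPM at 3 counts. Kitl, the ligand of the receptor Kit, was at 135, 89.3 and 73.3 CPM in 87 of 158 barcodes (55.1%) and in 20 of 13516 leukocytes. The depths of these classes differ; at 1000 UMIs each, Kitl was seen in 14.1% against 0.0329%, and Csf3 in 1 barcode of 156 against 2 of 9108. Il34, a ligand of the macrophage receptor Csf1r, was at 7.25, 8.27 and 23.1 CPM, while Csf1, the other ligand, was at 8.70, 11.6 and 13.6 CPM against 447, 387 and 426 CPM in the neutrophil gate. Tslp, an epithelial cytokine, was at 5.80, 9.92 and 66.6 CPM, with replicate 3 apart from the other libraries, and rested on 13 barcodes.

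Csf2, Il6 and Il11 had no UMI in the keratin-detected barcodes. Il1b, the inflammatory interleukin, was at 154, 261 and 179 CPM against 11394, 13511 and 16266 CPM in the neutrophil gate and 248, 443 and 416 CPM in the T-cell gate. An Il1b UMI was found in 62.0% of the keratin-detected barcodes against 20.9% of the T-cell gate as deposited, and in 12.8% against 14.8% at 1000 UMIs, so the order depends on depth and no expression is read from it. Il1a at 13.04, 14.9 and 2.72, Tnf at 1.45, 4.96 and 2.72 and Il17a at 1.45, 1.65 and 1.36 CPM were below the T-cell gate in CPM, as was Tgfb1 at 40.6, 44.6 and 55.7 CPM, though T cells can make the last 3 themselves. Tgfb2 was at 11.6, 6.61 and 16.3 CPM and Il23a, a subunit of interleukin 23, at 20.3, 4.96 and 19.02 CPM, both above the T-cell gate, where they had no UMI; the neutrophil gate held Il23a at 20.1, 19.2 and 22.1 CPM. The remaining members, Il33, Lif and Tgfb3, were at a mean of 0.483, 7.52 and 7.69 CPM, and Il18 at 0.483 CPM. Of 16 tested members 7 were called higher than leukocytes and 9 lower, where 26.8% and 31.6% of all genes were. Against the neutrophil gate it was 5 and 7 of 14, beside 36.8% and 32.5% of all genes.

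Of the 6 ligands of Cxcr2, Cxcl1 was above the T-cell gate in CPM in each library. It was at 49.3, 49.6 and 23.1 CPM in the keratin-detected barcodes, 60.2, 46.4 and 30.7 CPM in the neutrophil gate, 24.2, 18.4 and 13.8 CPM in the macrophage gate and 2.63, 3.08 and 0.689 CPM in the T-cell gate; replicate 3 was lowest, and the range overlapped that of the neutrophil gate. Over all 196 barcodes its log2 difference was 0.54 ± 0.23 from leukocytes and -0.71 ± 0.19 from the neutrophil gate, with trimmed-mean scaling. Against that gate the median of all genes was 0.09 with this scaling and 0.53 with library totals. The size of the Cxcl1 difference thus depends on the scaling. Cxcl2 was at 142, 226 and 187 CPM against 22022, 11073 and 15245 CPM in the neutrophil gate and 569.7, 358 and 319 CPM in the T-cell gate. A Cxcl2 UMI was found in 55.7% of the keratin-detected barcodes against 17.9% of the T-cell gate as deposited, and in 12.8% against 12.6% at 1000 UMIs. Cxcl3 was at 2.90, 14.9 and 1.36 CPM against 981, 257 and 742 CPM in the neutrophil gate; Cxcl5 had 1 UMI, and Cxcl15 and Ppbp had none. The shallow counts of Cxcl5 give a limit rather than a level.

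Among other chemokines, Cxcl12, the ligand of Cxcr4 that holds neutrophils in bone marrow, was at 28.98, 19.8 and 39.4 CPM in 26 barcodes against 1.19, 1.27 and 2.89 CPM in leukocytes, and Cx3cl1, a membrane-bound chemokine, at 10.1, 14.9 and 10.9 CPM against 0.238, 0.298 and 0.629 CPM. Neither range overlapped. Cxcl16 was at 69.6, 77.7 and 77.4 CPM, below leukocytes at 453, 434 and 309 CPM. Ccl5 was at 11.6, 21.5 and 187 CPM, so replicate 3 stood apart; the T-cell gate was at 10245, 10113 and 8952 CPM. Cxcl9, an interferon-gamma-induced chemokine, was found in replicate 2 only, in 3 barcodes. Of 12 tested, 2 were called higher than leukocytes and 10 lower, where 26.8% and 31.6% of all genes were. Prostaglandin synthases were divided: Ptges2 at 60.9, 62.8 and 47.5 CPM and Ptges3 at 330.4, 223 and 242 CPM were above leukocytes, and the cyclooxygenase Ptgs2 at 5.80, 6.61 and 6.79 CPM below them, at 108, 134 and 171 CPM.

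The receptors of neutrophils for these factors were low in the keratin-detected barcodes. Csf3r was at 8.70, 11.6 and 14.9 CPM and Cxcr2 at 1.45, 6.61 and 5.43 CPM, against means of 667 and 422 CPM in the neutrophil gate. All 16 of 16 tested members were called lower than leukocytes, where 31.6% of all genes were. Of surface partners of neutrophils, Icam1, the ligand of the beta-2 integrins, had a UMI in 2 of 158 keratin-detected barcodes against 6 of 38 keratin-free ones; its level was 0, 1.65 and 1.36 CPM against 59.2, 64.4 and 74.3 CPM in leukocytes. Vcam1 and Icam2 had at most 1 UMI. The syndecans, which bind chemokines on the cell surface, were at 164, 101 and 211 CPM for Sdc1 and 326, 205 and 270.3 CPM for Sdc4, and Ceacam1, an adhesion receptor, at 50.7, 52.9 and 85.6 CPM; all 3 were above leukocytes in each library. Muc1, an epithelial mucin, was at 72.5, 72.7 and 82.9 CPM and F11r, a junctional adhesion molecule, at 125, 137 and 124 CPM. The list had 8 of 16 called higher and 8 lower than leukocytes, where 26.8% and 31.6% of all genes were. Cd274, the checkpoint ligand PD-L1, was at 8.70, 8.27 and 1.36 CPM against 315, 246 and 267 CPM in the neutrophil gate.

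Cell-cycle transcripts were present, and G1 regulators differed from leukocytes in both directions. Ccnd1, a D-type cyclin, was at 519, 349 and 531 CPM against 25.95, 36.03 and 31.7 CPM, a log2 difference of 3.59 ± 0.18 (SE) for all 196. Its partner kinase Cdk4 was at 391, 403 and 359.9 CPM against 108, 90.5 and 91.9 CPM, a difference of 1.71 ± 0.13. Cdkn2a, which encodes the inhibitors p16Ink4a and p19Arf from overlapping reading frames, was at 394, 327 and 439 CPM in 136 of 158 barcodes against 4.88, 5.95 and 5.53 CPM, a difference of 5.79 ± 0.17. Cdkn1a, the p21 inhibitor and a target of p53, went the other way at 13.04, 23.1 and 32.6 CPM against 613, 532 and 671 CPM (-3.64 ± 0.16, log2, all 196). The ranges did not overlap for any of these 4. Ccnd2, the D-type cyclin of lymphocytes, was at 1.45, 4.96 and 2.72 CPM against 169, 186 and 177 CPM.

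Of the p53 list, 2 of 12 tested members, Trp53 and Phlda3, were called higher than leukocytes and 7 lower. For all genes the shares were 26.8% and 31.6%. Trp53 was at 113, 77.7 and 97.8 CPM against 42.4, 41.9 and 47.4 CPM; 2208L is known as a line of Trp53-null origin, and a tag outside a deleted part of a gene checks nothing, so these counts say nothing of the allele. Phlda3, an Akt inhibitor induced by p53, was at 30.4, 49.6 and 54.3 CPM, while Ccng1 at 7.25, 18.2 and 8.15 CPM and Mdm2 at 31.9, 38.02 and 31.2 CPM, other p53 targets, were below leukocytes at 54.5, 46.7 and 60.9 and 53.9, 47.04 and 70.3 CPM.

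Of the S-phase list 18 of 41 tested genes were called higher than leukocytes and 1 lower, and of the G2/M list 28 of 53 and 5; the medians were 0.55 and 0.87 on the log2 scale, against -0.07 over all genes. Against the macrophage gate, which is closer in depth, it was 14 and 0 of 38, and 17 and 2 of 45. Over all genes 26.8% were called higher and 31.6% lower than leukocytes, and 27.2% higher and 28.8% lower than the macrophage gate. The selection used these contrasts, so the list counts are a description. Cks1b, a cyclin-dependent kinase subunit, was at 464, 283 and 329 CPM against 63.9, 51.1 and 49.8 CPM, higher by 2.45 ± 0.13 on the log2 scale over all 196. Top2a, the topoisomerase of dividing cells, was at 116, 38.02 and 66.6 CPM against 36.6, 30.5 and 28.3 CPM, and Mki67, the proliferation antigen, at 30.4, 19.8 and 52.97 CPM against 17.3, 13.7 and 13.1 CPM. Mki67 had a UMI in 30 of 158 barcodes, and the log2 difference from leukocytes over all 196, 0.96 ± 0.28 (SE), was 0.43 ± 0.29 without replicate 3, whose level was highest. Rrm2, a subunit of ribonucleotide reductase, was at 139, 52.9 and 38.03 CPM, Cdk1 at 104, 28.1 and 31.2 CPM and Cenpf at 88.4, 39.7 and 31.2 CPM; replicate 1 was highest for all 3.

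Per barcode, thinned to 1000 UMIs, at least 2 S-list UMIs were found in 14.3%, 14.3% and 19.7% of the selected barcodes (16.1% ± 3.11, SD, n = 3) and in 11.2% ± 0.710 of leukocytes, 4.60% ± 1.16 of the neutrophil gate, 11.8% ± 0.409 of the macrophage gate and 18.4% ± 1.88 of the T-cell gate. Thinning left out 2 of 196 selected barcodes and 4408 of 13516 leukocytes; unthinned the shares were 81.2% and 23.0%. At least 2 G2/M-list UMIs were found in 50%, 41.3% and 36.1% (42.4% ± 7.04), with exact 95% intervals of 37.8% to 62.2%, 29.0% to 54.4% and 24.2% to 49.4%. Leukocytes had 39.1% ± 5.10, the neutrophil gate 46.1% ± 4.60, where the list members Cks2 and Hmgb2 were at 439 and 633 CPM, the macrophage gate 31.4% ± 1.78 and the T-cell gate 42.9% ± 2.48. The G2/M range of the selected barcodes overlapped that of every class at equal depth but the macrophage gate, whose highest library was 32.5%. With at least 3 list UMIs at 1000 UMIs it overlapped none: the selected barcodes had 37.1%, 28.6% and 27.9%. The highest library was 22.2% in leukocytes, 25.2% in the neutrophil gate, 17.5% in the macrophage gate and 22.0% in the T-cell gate. This depended on depth: with at least 3 list UMIs at 2000 UMIs, only the macrophage gate did not overlap. The selected barcodes then had 53.6%, 45.16% and 56.7%, and leukocytes 39.4%, 39.1% and 45.18%. The neutrophil gate had 45.7%, 49.5% and 61.7% and the T-cell gate 60.5%, 58.3% and 54.4%. With 3 libraries an exact paired permutation test cannot go below p = 0.25, so none was run, and no share of dividing cells is read from these counts.

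MHC class I genes, which present antigen to cytotoxic T cells, were below leukocytes, and replicate 2 differed from the other libraries. The 10 genes summed to 1777, 5073 and 2187 CPM in the keratin-detected barcodes and to 8557, 11237 and 9714 CPM in leukocytes. B2m, the shared light chain, was at 1106, 2906 and 1317 CPM, H2-D1 at 316, 1175 and 426 CPM and H2-K1 at 109, 422 and 130.4 CPM; leukocytes were at 3572, 4937 and 4138, at 2994, 3702 and 3431 and at 938, 1206 and 1023 CPM. Every keratin-detected value lay below every value of the kept leukocytes for the same gene. The immunoproteasome gene Psmb9 was at 15.9, 101 and 20.4 CPM and the peptide transporter Tap1 at 8.70, 41.3 and 5.43 CPM. In each of these 5 replicate 2 was highest, and in leukocytes it was highest too, by a smaller ratio, with Psmb9 at 238, 336 and 239.7 CPM.

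Single barcodes show the same order. The median share of UMIs from the class I list was 0.121%, 0.389% and 0.116% over the keratin-detected barcodes of replicates 1, 2 and 3, with upper quartiles of 0.233%, 0.701% and 0.251%, against leukocyte medians of 0.722%, 0.987% and 0.756%. Other interferon-stimulated genes set replicate 2 less apart, with Isg15 at 91.3, 106 and 77.4 CPM and Bst2 at 236, 419.9 and 414 CPM. Ptprc and MHC class II levels were also highest in replicate 2 of the keratin-detected barcodes (Cd74 122, 219.9 and 52.97 CPM), and so was Cd74 in the T-cell gate, at 543, 1138 and 291 CPM; their part in the class I difference was not tested. Replicate 2 is a single library picked out by its values, so that difference was not tested. The hypoxia and glycolysis list had 2 of 14 called higher than leukocytes and 7 lower, and the stress and immediate early list 1 and 8 of 10. Of 10 class I genes tested over all 196 barcodes, 9 were called lower than leukocytes and none higher, and of 12 interferon-stimulated genes 12 were called lower. Over all genes 26.8% were called higher and 31.6% lower. By gate the interferon-stimulated order differed: the 12 summed to 1961, 2746 and 2477 CPM in the keratin-detected barcodes. The T-cell gate was at 1480, 1862 and 1625 CPM, the macrophage gate at 2657, 3086 and 3724 and the neutrophil gate at 8645, 11179 and 10196. By mean CPM, Bst2 and Ifitm3 were above the T-cell gate and the other 10 at or below it.

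**Figure D3:**
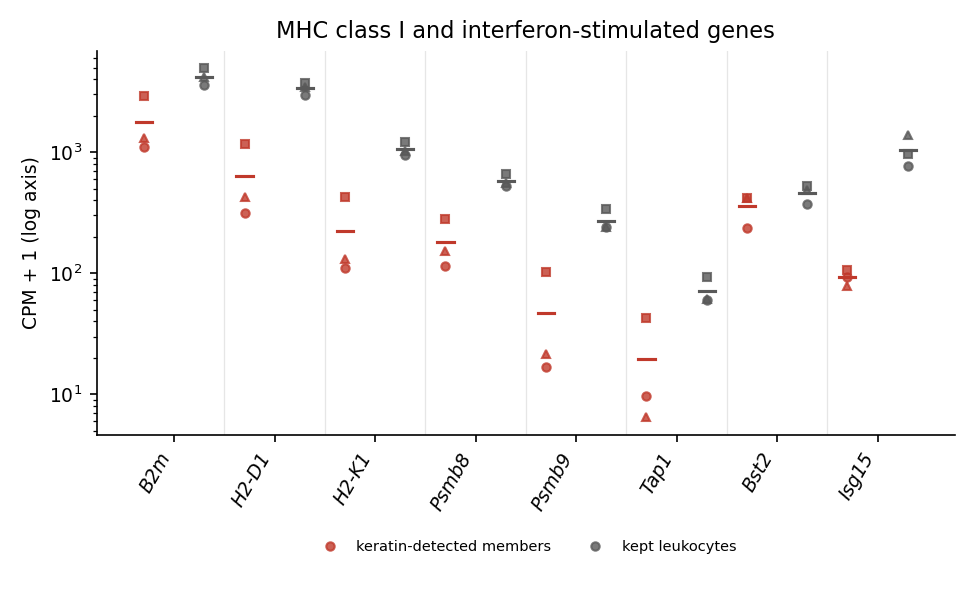
CPM plus 1 (log axis) of 8 MHC class I and interferon-stimulated genes in the keratin-detected barcodes and the kept leukocytes of each library (circle, square and triangle for replicates 1, 2 and 3; bar, mean). The squares of replicate 2 lie highest for B2m, H2-D1, H2-K1, Psmb8, Psmb9 and Tap1 in the keratin-detected barcodes.

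MHC class II depended on which of the selected barcodes were counted. Over all 196, 6 of 6 class II genes were called higher than the neutrophil gate, where 36.8% of 9970 tested genes were. Among the 158 keratin-detected ones none was, and 5 were called lower (33.8% of 10037 tested genes were). Cd74 was 2.35 ± 0.25 (log2, SE) from the neutrophil gate over all 196 and -2.58 ± 0.28 over the 158.

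The keratin-detected barcodes shared a run of neighbouring genes on chromosome 6 that the selection did not use. It spans 7.61 Mb around Met, the receptor of hepatocyte growth factor, at chr6:17058806-24665009 in the GRCm38 annotation, from Gm15473 to Wasl, and its ends were set after the values were seen. Of its 18 genes with at least 20 CPM in a class, 17 had a log2 ratio over 2 against leukocytes (CPM plus 10), where 5.93% of 6141 genes did; the median was 3.92 in the run and 0.09 over all genes. The exception was Gm20186 at 0.56. By library the median was 4.01, 3.82 and 4.11, and it was 3.91 over the neutrophil gate, 3.86 over the macrophage gate and 4.17 over the T-cell gate. The 10 nearest genes before the run had a median of 0.21 (-1.57 to 1.58) and the 10 after it 0.54 (-3.22 to 2.23).

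The run holds genes of many functions. Capza2, an actin-capping subunit, was at 7642, 6593 and 6585 CPM, Lsm8, which binds U6 small nuclear RNA, at 7333, 6176 and 7144 CPM, Ndufa5, of respiratory complex I, at 4358, 3875 and 3965 CPM and Tes, a focal-adhesion protein, at 4174, 3176 and 4357 CPM. Met was at 985, 946 and 1262 CPM in 146 of 158 barcodes against 3.57, 2.61 and 4.78 CPM in leukocytes, and no Met UMI was found in the keratin-free barcodes. Wasl, an activator of actin branching, was at 1165, 1207 and 1255 CPM, Cav2, a caveolin, at 2198, 1678 and 2521 CPM and Cftr, the chloride channel, at 220.3, 193 and 277 CPM. For each gene named here every library lay far above leukocytes.

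**Figure D4:**
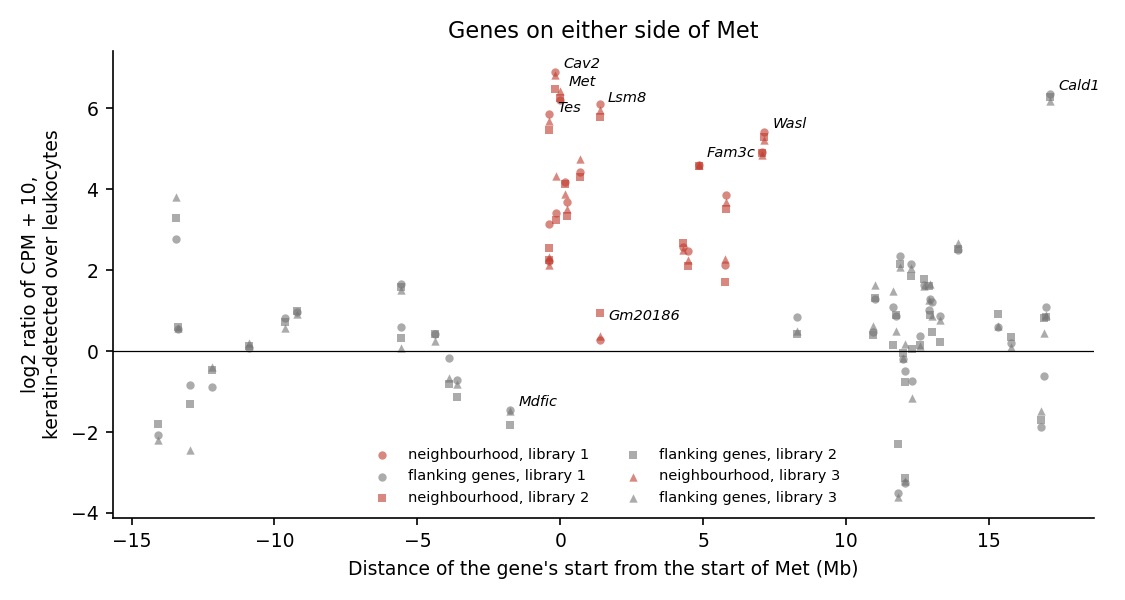
The log2 ratio of CPM plus 10 between keratin-detected barcodes and kept leukocytes for genes on either side of Met, 1 point per gene and library, against the distance of the gene's start from that of Met in Mb. The run (red) has a median of 3.92; among the flanking genes (grey) Cald1 (6.25), Gng11 (3.35), Mkln1 (2.56), Calu (2.23) and Smo (2.03) also lie over 2.

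Summed over its 45 annotated genes, the run took 3.07%, 2.62% and 2.98% of UMIs in the keratin-detected barcodes, 0.0887%, 0.0821% and 0.0937% in leukocytes and 0.0947%, 0.0672% and 0.0870% in the keratin-free barcodes. Per barcode the keratin-detected range was 0.546% to 4.67% with a median of 2.68%, and the keratin-free range 0 to 0.170%. Of all kept barcodes 252 reached 1%: 157 of them selected, 23 that had failed a leukocyte limit (13 by a single Cd3 UMI alone), and 72 others. The 72 had a median depth of 1190 UMIs, 49 of them had no Epcam UMI, and 22 stood among the kept leukocytes. Medians over 9 neighbouring genes were taken for 5968 stretches, those inside the run included. Inside the run the median reached 4.52, at Capza2. Outside it the highest was 1.98, on chromosome 1 around Csrp1 and Phlda3. In the other direction a stretch of similar size reached -4.39, on chromosome 11 around the chemokine genes Ccl3, Ccl4, Ccl6 and Ccl9.

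By chromosome, the keratin-detected barcodes lay furthest from leukocytes on chromosome 14. Its 163 genes had a median log2 ratio 0.89 below that of all genes, and by library the difference was -0.92, -0.75 and -0.92. Of them 133 (81.6%) lay below 0, where 46.5% of 6141 genes did. The difference was -0.68 against the neutrophil gate, -0.70 against the macrophage gate and -0.80 against the T-cell gate. Next were chromosome 12 at -0.49, chromosome 17 at -0.39 and chromosome 4 at -0.27, and on the high side chromosome 3 at 0.39. DNA was not measured, so copy number and expression cannot be told apart.

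**Figure D5:**
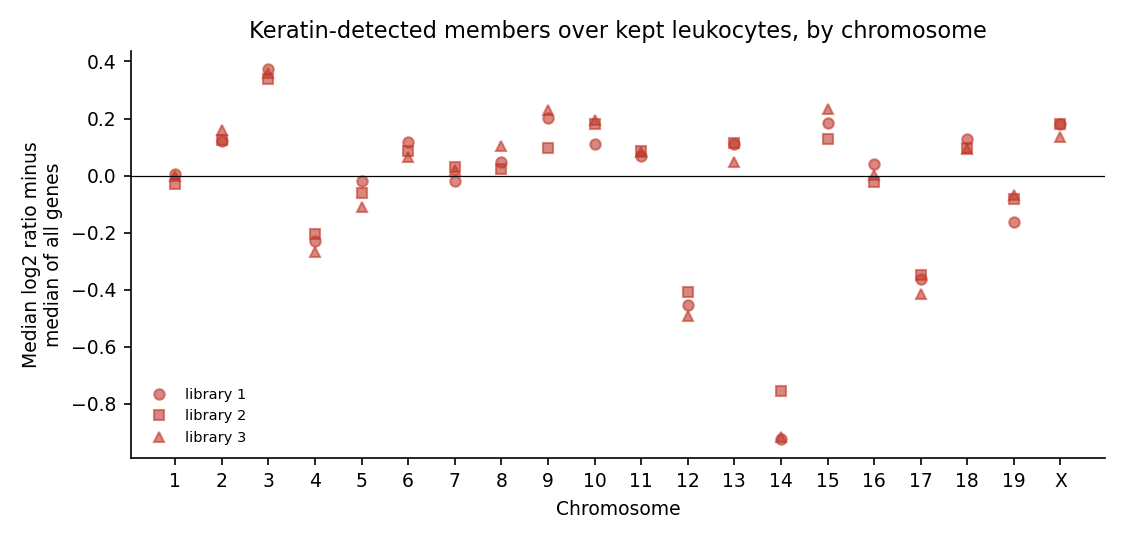
Median log2 ratio of CPM plus 10 between keratin-detected barcodes and kept leukocytes over the genes of each chromosome, minus the median of all genes, 1 point per library. Chromosome 14 lies lowest, between -0.92 and -0.75, and chromosome 3 highest, and the libraries lie close together on each.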

How the data were processed

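Transcripts of sorted single cells were counted in droplets, in 3 libraries that form 1 group. The deposited matrices hold raw UMI counts per gene and barcode; they were made with Cell Ranger and Seurat on mm10 per the submitters' processing notes, and software version 3.0.0 per the file headers. A 5′ platform is named in the labels beside a protocol for 3′ ends, so the end of the transcript that was counted is not settled. Barcodes with 200 genes or more and at most 10% mitochondrial UMIs were kept. The members and the gene lists were chosen with earlier results of these data known.

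Counts were summed per class and library and fitted with edgeR 4.0.16 (quasi-likelihood, trimmed-mean scaling, library as a block, since the 2 classes compared share each library), leaving out genes used by the selection, with Benjamini-Hochberg adjustment over all genes tested and a threshold of 0.05. DESeq2 1.42.0 was an alternative. The fit was also run on simulated counts in which few genes differed between the classes. Many more differed in these data, so that run does not test the scaling. Levels shown against gene position use GENCODE positions on GRCm38, a floor of 20 CPM and 10 CPM added before the log2 ratio. For per-barcode shares each barcode was thinned to 1000 UMIs; Clopper-Pearson intervals (95%) and limits for a count of 0 (3 counts) cover counting error only. Scrublet called 2 of 14226 barcodes (0.0141%), which cannot be taken as a working doublet call, so no barcode was removed by it.

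Named genes were the 10 largest and 10 smallest fold changes of each contrast with adjusted p under 0.05, a mean log2 CPM of at least 5 and 1 direction in all 3 libraries, without predicted, ribosomal, mitochondrial, immunoglobulin and T-cell receptor genes and those of the selection; up to 4 called members of each list; and every Cxcr2 ligand, cytokine and acute-phase gene by level. Of the smallest, those against the neutrophil and macrophage gates are not shown. Genes outside this rule are marked as chosen after their values were seen, or are given as levels only. Each p sets a difference between classes against its spread over the libraries, after the library block. The neutrophil and macrophage contrasts came from a joint fit with the T-cell gate, which shared the estimate of that spread.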

Additional observations from a re-analysis of the deposited data

How the results depend on the processing

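Thinning every barcode to 1000 UMIs moved the most results: 547 genes were called higher and 1215 lower than leukocytes, 1129 and 1841 against the neutrophil gate and 519 and 1207 against the macrophage gate, and the median of all genes shifted to -0.40, -0.38 and -0.39 (log2); with library totals it was 0.10, 0.53 and 0.10. Leaving out 1 library gave 2305 to 2688 higher and 2889 to 3295 lower than leukocytes, 3133 to 3407 and 2947 to 3094 against the neutrophil gate, and 2350 to 2495 and 2424 to 2617 against the macrophage gate. With no replicate block, that is without the pairing by library, the counts were 3070 and 3587, 3660 and 3215, and 2671 and 2812. The comparison by Ptprc, with 153 genes called, had 0 by edgeR at 10000 UMIs (7 barcodes against 92; 65 genes at an unadjusted p under 0.05), 182 with DESeq2, 252 with no low-count filter, 23 among keratin-detected barcodes, 191 with no replicate block and 0 to 149 without 1 library. Fewer barcodes entered at 10000 UMIs and among the keratin-detected ones; for the others the cause was not tested.

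The share of selected barcodes was 0.989% with at least 10 UMIs of the 3 genes, 1.85% with at least 3, and 1.76% when 500 genes were required and the mitochondrial limit was 5%; it was 1.33% to 1.62% without 1 library. The share with a Ptprc UMI was 12.8% with at least 10 UMIs, 11.02% among keratin-detected barcodes, 8.69% after thinning, and 19.2% to 30.2% without 1 library. G2/M shares were 68.5% at 2000 UMIs and 31.2% for at least 3 list UMIs, S shares 33.01% and 8.68%, and without 1 library 38.7% to 45.6% and 14.3% to 17.0%. The difference of Cd74 from the neutrophil gate reversed to -0.17 with at least 10 UMIs of the 3 genes and to -2.58 with keratin-detected barcodes, an alternative chosen after seeing the data, which leaves out the keratin-free ones. Of 557 values of named genes under alternatives, the 2 of Cd74 reversed, 525 kept direction and side of the threshold, 26 lost the call and 4 gained it; Mif and Cxcl1 against leukocytes lost it most often. Low depth limits genes seen in few barcodes, such as Csf3, Tslp and Cxcl5.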
